A study of Mus musculus with 16 samples.

Results

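Granulocyte-monocyte progenitors (GMPs) were compared with common myeloid progenitors (CMPs), 2 stages of myeloid development in mouse bone marrow. The members were all 5 arrays labelled as GMPs and all 6 labelled as CMPs, 11 of the 16 arrays of the series. The 5 arrays of committed monocyte progenitors (cMoPs) entered the fit and are given beside single genes only. The mice were wild-type C57BL/6, and their age is not given in the sources used here. For 3 weeks they drank water with ampicillin, metronidazole, neomycin and vancomycin, each at 1 g/L, or control water, and both waters held 2% sucrose. GMPs from mice on antibiotic water had 3 arrays and GMPs from mice on control water 2, while CMPs had 3 arrays on either water. The difference was taken as GMPs minus CMPs within each water, and the mean of both differences is the value reported, in log2 units, so it can depart slightly from the difference of the group means.

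Both progenitors were sorted as lineage-negative, Kit-positive and CD105-negative cells without CD115, with high CD16/32 in GMPs and intermediate CD16/32 in CMPs. The lineage panel also held Sca-1, CD11b and Ly6G, so stem cells and mature neutrophils were gated out in either group. CD34, which is widely used to part CMPs from megakaryocyte-erythroid progenitors, is not among the markers of the stated gate. Each array used 2.6 ng of RNA that was amplified before labelling. The labels do not say whether an array stands for 1 mouse or a pool, or whether GMPs and CMPs came from the same mice, and a p-value therefore speaks only of how far these arrays vary, which may be technical.

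A CMP can give rise to granulocytes, monocytes, megakaryocytes and red cells, and such cells carry low levels of transcripts from several of these lineages at once. A GMP has lost most of the megakaryocyte and red cell potential and begins to make the proteins of azurophil granules, which neutrophils later release on microbes. Transcription factors of the C/EBP family, PU.1 and GFI1 are known to promote the granulocyte and monocyte fates. GATA1, GATA2 and their partners TAL1, LMO2 and LDB1 promote the red cell, megakaryocyte and mast cell fates, and KLF1 promotes the red cell fate.

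The arrays resembled each other in scale, with medians between 4.04 and 4.17 and lower quartiles between 2.89 and 2.99 log2 units. No detection calls came with the table, and for a mean near or below the lower quartiles it is unknown whether it exceeds background. GMP arrays correlated with CMP arrays at r = 0.966 to 0.975 across genes over 30 pairs, and arrays of the same progenitor and water at 0.985 to 0.99 over 10 pairs, as a description. On the first principal component of the 11 arrays, with 49.3% of the variance, GMPs lay between 36.1 and 38.4 and CMPs between -34.7 and -27. Here and below a level is given as the mean log2 signal ± SD over 5 GMP or 6 CMP arrays, and a difference with its standard error and the limma p adjusted by the Benjamini-Hochberg method over 22180 genes.

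The genes of the gate served as a check of the labels. Fcgr3, which encodes CD16, had 9.84, 9.72 and 9.87 on antibiotic water and 9.72 and 9.9 on control water in GMPs, against 6.23 to 7.12 (median 6.62) in CMPs (3.14 ± 0.15, adjusted p = 3.38e-10). Fcgr2b, which encodes CD32, averaged 7.17 ± 0.16 in GMPs and 5.09 ± 0.47 in CMPs (2.08 ± 0.21, adjusted p = 2.63e-06). Both groups were apart for both genes, as the sort on CD16/32 fixes. Kit transcripts averaged 10.04 ± 0.06 in GMPs and 10.51 ± 0.07 in CMPs, with arrays that did not overlap (-0.48 ± 0.09, adjusted p = 0.000799). Eng, the gene of CD105, fell to 6.65 ± 0.42 in GMPs, against 8.33 ± 0.33 in CMPs, although cells with CD105 on the surface were gated out of both (-1.62 ± 0.18, adjusted p = 6.26e-06). Csf1r, the gene of CD115, averaged 7.35 ± 0.38 in GMPs and 6.81 ± 0.33 in CMPs with overlapping arrays (0.58 ± 0.13, adjusted p = 0.00378), below the 9.33 of cMoPs, which were sorted for CD115. Itgam, the gene of the lineage marker CD11b, averaged 7.35 ± 0.19 in GMPs and 6.24 ± 0.28 in CMPs (1.11 ± 0.12, adjusted p = 3.5e-06). The Ly6C genes, which were not used to divide these progenitors, were also higher in GMPs, with differences of 2.27 ± 0.18 for Ly6c2 and 1.03 ± 0.19 for Ly6c1. Ly6c1 averaged only 2.91 ± 0.25 in CMPs, near the lower quartiles, so the size of its difference is uncertain. Itga2, the gene of the lineage marker CD49b, differed by -0.98 ± 0.21, adjusted p = 0.00364 and had overlapping arrays. Its difference was -1.54 on antibiotic water (adjusted p = 0.00131) but -0.41 on control water, where it was not called (adjusted p = 0.541). The other lineage genes Cd4, Cd5, Cd8a, Thy1, Itgax, Ly6g and Klrb1c were not called, and neither was Ptprc, the parent gene of the B220 epitope. Of the 17 measured gate genes, 6 were higher, 3 lower and 8 not called, where 16.0% of all genes were called.

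Over all 22180 genes, 3558 (16.0%) were called at an adjusted p under 0.05. GMPs were higher in 1745 of them (7.87%) and lower in 1813 (8.17%). At least a 2-fold change was called for 438 genes that were higher (1.97%) and 420 that were lower (1.89%). The median difference of all genes was 0.02. The sign of the difference was the same in both waters for 3550 of the 3558 genes and for all 858 with at least a 2-fold change. For 2493 genes (11.2%) the 5 GMP arrays did not overlap with the 6 CMP arrays, 1217 of them higher (5.49%) and 1276 lower (5.75%), and 2312 of these were called. Without adjustment, 5875 genes (26.5%) had a p under 0.05. Of the genes called lower, 38 had a GMP mean below the lower quartile, and of those called higher, 79 had a CMP mean below it, so these differences are uncertain in size. In sorted populations a lower signal of a lineage's genes can come from fewer cells of that lineage or from less RNA per cell, and these cannot be told apart here.

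**Figure D1:**
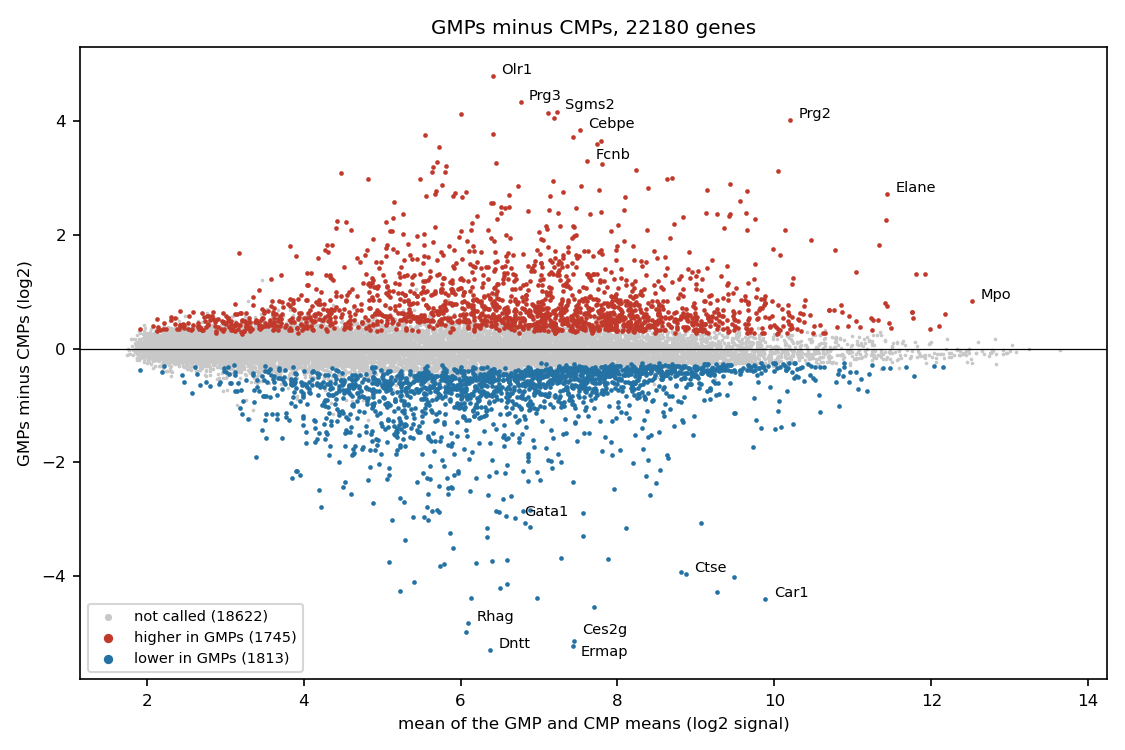
Difference between GMPs and CMPs (vertical axis, log2) against the mean of both group means (horizontal axis, log2 signal) for 22180 genes, 1 point per gene, with the 1745 genes called higher in GMPs in red and the 1813 called lower in blue. Differences reached 4.8 for Olr1 and -5.31 for Dntt, and the very bright granule gene Mpo moved by only 0.84.

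The 15 genes that rose most in GMPs, among those called with arrays apart, included several that neutrophils and eosinophils are known for. Olr1, a scavenger receptor for oxidised lipoproteins, had 9.33, 9.29 and 8.8 on antibiotic water and 8.42 and 8.41 on control water in GMPs, against 3.71 to 4.5 (median 3.84) in CMPs. Every GMP array lay above every CMP array, and the difference was 27.9-fold (4.8 ± 0.14, adjusted p = 3.46e-12). The transcription factor gene Cebpe, needed for the later steps of granulocyte maturation, had 9.62, 9.55 and 9.69 on antibiotic water and 9.21 and 9.25 on control water in GMPs. Its CMP arrays lay at 5.13 to 6.21 (median 5.53), so that the groups were far apart (3.85 ± 0.17, adjusted p = 2.33e-10). Surface lectins and an immune receptor were also among them: Clec5a (3.55 ± 0.21), Clec4b2 (3.76 ± 0.17), Clec4a2 (3.28 ± 0.12) and the receptor gene Trem3 (3.73 ± 0.19). Clec4b2 and Clec4a2 are paralogs, and whether the probe sets tell such copies apart was not tested here or for any other gene family named below. Fcnb, which encodes the soluble lectin ficolin B, averaged 9.32 ± 0.62 in GMPs and 5.9 ± 0.31 in CMPs (3.3 ± 0.15, adjusted p = 3.05e-10).

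Others of these 15 genes belong to lipid and sugar metabolism. Sgms2, a sphingomyelin synthase, averaged 9.32 ± 0.16 in GMPs and 5.13 ± 0.67 in CMPs (4.17 ± 0.23, adjusted p = 2.11e-09), and B4galt6, which makes lactosylceramide, averaged 9.63 ± 0.1 in GMPs and 5.96 ± 0.43 in CMPs (3.66 ± 0.12, adjusted p = 1.02e-11). Far2, which reduces fatty acids to alcohols, differed by 4.06 ± 0.16, adjusted p = 7.94e-11. Mgam, which encodes the starch-digesting enzyme maltase-glucoamylase, had 8.29, 8.42 and 8.1 on antibiotic water and 7.93 and 7.71 on control water in GMPs, against 3.35 to 4.93 (median 3.76) in CMPs. Its GMP arrays were all above its CMP arrays (4.12 ± 0.24, adjusted p = 3.89e-09). The remaining leading genes, Prg3, Prg2, Epx and Rnase12, are described with the eosinophil genes below.

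The 15 genes that fell most in GMPs were led by Dntt, the template-independent DNA polymerase of early lymphoid cells. Dntt had 3.85, 3.83 and 3.36 on antibiotic water and 3.94 and 3.63 on control water in GMPs, against 8.53 to 9.42 (median 9.07) in CMPs. The GMP level was not far above the lower quartiles, and the fall was 39.6-fold (-5.31 ± 0.18, adjusted p = 1e-11). Red cell genes made up much of the rest. Ermap, a membrane protein of red cells, had 4.36, 5.06 and 5.41 on antibiotic water and 4.81 and 4.49 on control water in GMPs, against 9.89 to 10.19 (median 10.02) in CMPs (-5.23 ± 0.18, adjusted p = 1.63e-11). Rhag, an ammonia channel of the Rhesus complex, averaged 3.69 ± 0.25 in GMPs and 8.5 ± 0.42 in CMPs (-4.83 ± 0.14, adjusted p = 2.93e-12). For both genes the arrays of the groups stood well apart. The water channel gene Aqp1 (-4.54 ± 0.16), the carbonic anhydrase genes Car1 (-4.41 ± 0.13) and Car2 (-4.28 ± 0.2), Cldn13 (-4.39 ± 0.13) and the carboxylesterase gene Ces2g (-5.14 ± 0.14) also belong to this group.

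Other leading falls concerned metabolism and the cell surface. The phospholipid transporter gene Abcb4 averaged 3.94 ± 0.28 in GMPs and 8.32 ± 0.22 in CMPs (-4.39 ± 0.16, adjusted p = 2.1e-11), and the tetraspanin gene Tspan8 averaged 3.1 ± 0.25 in GMPs and 7.36 ± 0.39 in CMPs (-4.27 ± 0.16, adjusted p = 4.01e-11). The GMP mean of Tspan8 lay near the lower quartiles, so the size of its difference is uncertain. Aldh1a1, which makes retinoic acid from retinal and marks stem cells in many tissues, differed by -4.14 ± 0.15, adjusted p = 1.63e-11. Bex4 differed by -4.1 ± 0.24, adjusted p = 4.14e-09, and Ctse, an aspartic protease of red cell and stomach lineages, by -3.96 ± 0.12, adjusted p = 3.46e-12. The lowest GMP array of Bex4, at 2.75, lay below the lower quartiles. The metallothionein gene Mt2, whose product binds zinc and copper, averaged 7.46 ± 0.33 in GMPs and 11.51 ± 0.24 in CMPs (-4.02 ± 0.13, adjusted p = 1e-11). Its neighbour in function Mt1 averaged 10.13 ± 0.15 in GMPs and 10.2 ± 0.09 in CMPs and was not called (-0.07 ± 0.11, adjusted p = 0.762), and Mt3 was not called either (0.04 ± 0.11, adjusted p = 0.87).

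**Figure D2:**
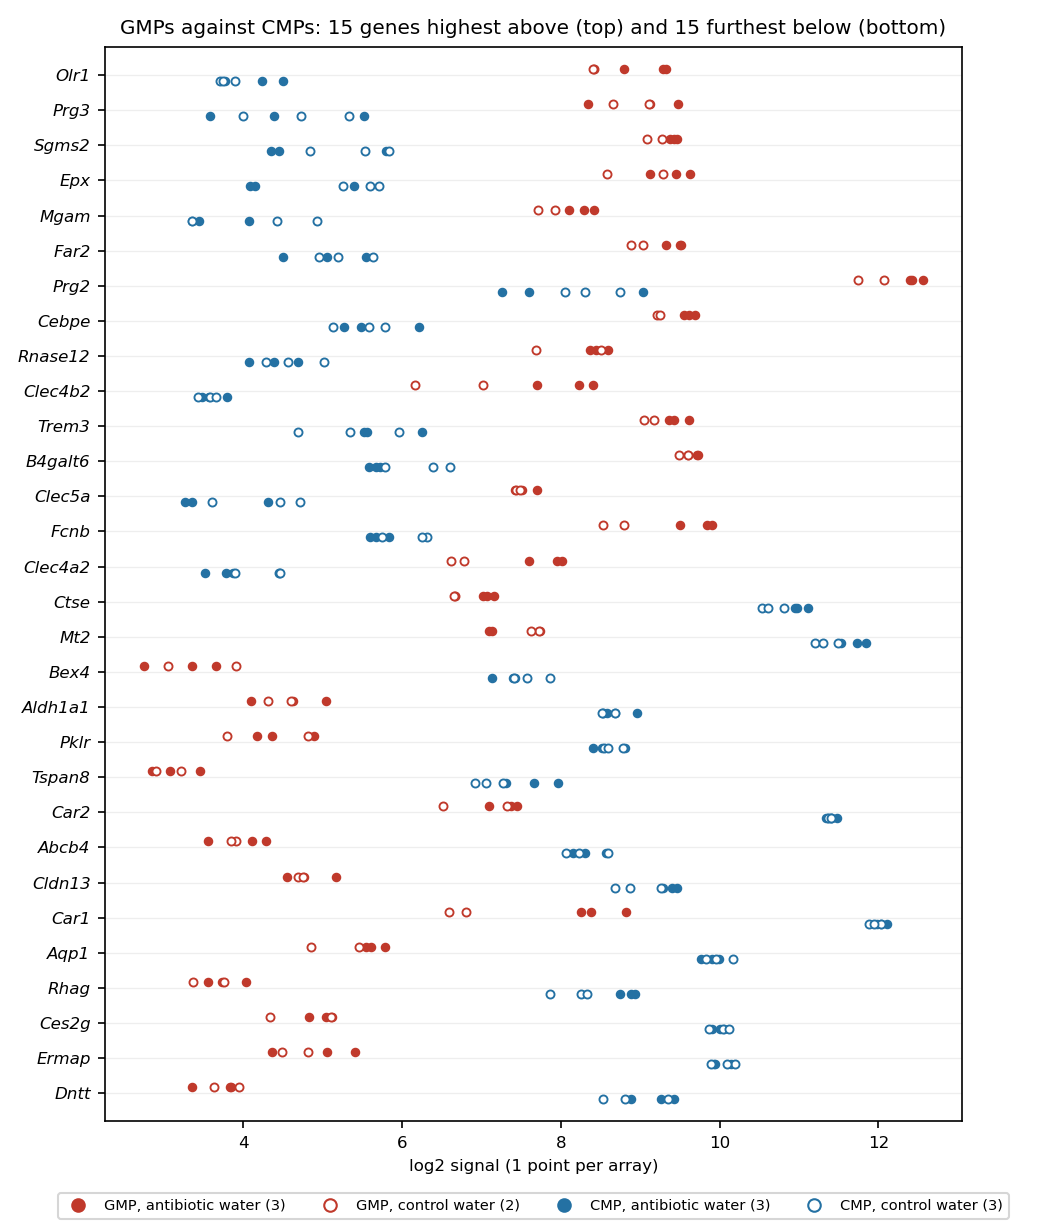
Log2 signal (horizontal axis) of the 15 genes with the largest rise and the 15 with the largest fall in GMPs, 1 row per gene and 1 point per array, with the GMP arrays in red above the CMP arrays in blue, filled for antibiotic water and open for control water. In every row the 5 GMP arrays and the 6 CMP arrays do not overlap, which the choice of these genes fixes.

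Promoter sequences are given for 2 leading genes in each direction, those with the most matches to 8 short motifs of blood cell transcription factors. Any leading genes on 1 chromosome, set aside by the rule for this choice, were not eligible. Sequences come from RefSeq, build GRCm38.p6, and run from 250 bases before to 50 bases after the start of the gene on its own strand. Capitals mark every match to a motif on either strand, overlaps merged. The motifs were GATAA (GATA factors), GAGGAA (PU.1), TTGCNNAA and the wider TTNNGNAA (C/EBP), CCNCNCCC (KLF), TGTGGT (RUNX), TAACNG (MYB) and CAGNTG (E-box factors such as TAL1). A match of TTGCNNAA always matches TTNNGNAA on the other strand as well. The table held 1 promoter for each of these genes, and 11 of the 15 leading genes in either direction had an entry.
Mgam, higher in GMPs, at chr6:40628581-40628880 on the plus strand: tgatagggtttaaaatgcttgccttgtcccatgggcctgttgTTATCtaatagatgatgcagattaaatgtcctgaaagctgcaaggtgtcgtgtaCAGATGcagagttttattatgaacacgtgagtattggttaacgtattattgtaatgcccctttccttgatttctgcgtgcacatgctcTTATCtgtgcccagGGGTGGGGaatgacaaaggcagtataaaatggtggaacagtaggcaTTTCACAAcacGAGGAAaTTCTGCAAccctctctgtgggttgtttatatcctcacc
Clec4b2, higher in GMPs, at chr6:123172773-123173072 on the plus strand: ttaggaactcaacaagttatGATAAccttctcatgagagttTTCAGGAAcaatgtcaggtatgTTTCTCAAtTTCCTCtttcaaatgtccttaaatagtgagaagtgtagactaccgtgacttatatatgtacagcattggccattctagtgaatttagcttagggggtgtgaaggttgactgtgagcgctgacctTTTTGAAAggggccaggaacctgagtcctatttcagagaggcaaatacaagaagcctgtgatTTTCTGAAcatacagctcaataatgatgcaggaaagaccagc
Aqp1, lower in GMPs, at chr6:55336049-55336348 on the plus strand: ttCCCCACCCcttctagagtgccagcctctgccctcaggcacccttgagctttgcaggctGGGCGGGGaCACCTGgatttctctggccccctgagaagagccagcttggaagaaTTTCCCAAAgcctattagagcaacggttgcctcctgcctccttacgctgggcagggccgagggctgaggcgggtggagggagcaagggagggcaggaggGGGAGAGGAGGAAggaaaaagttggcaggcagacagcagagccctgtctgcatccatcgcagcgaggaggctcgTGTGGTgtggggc
Tspan8, lower in GMPs, at chr10:115817034-115817333 on the plus strand: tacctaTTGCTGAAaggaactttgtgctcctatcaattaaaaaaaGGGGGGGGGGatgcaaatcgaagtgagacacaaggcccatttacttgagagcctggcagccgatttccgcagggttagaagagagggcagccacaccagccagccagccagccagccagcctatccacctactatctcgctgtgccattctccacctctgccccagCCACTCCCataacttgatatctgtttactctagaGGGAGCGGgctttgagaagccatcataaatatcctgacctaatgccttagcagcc
The Mgam window held 8 matches, among them 2 of GATAA, 1 of GAGGAA and 1 of TTGCNNAA, and the Aqp1 window also held 8, with 3 of CCNCNCCC and none of GATAA.

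The shares of promoters with each motif were set beside those of all 16918 promoters of measured genes. Of the 346 promoters of genes at least 2-fold higher in GMPs, 14.2% held TTGCNNAA, against 9.48% of the 327 promoters of genes at least 2-fold lower and 10.1% of all. GAGGAA was in 34.7% of the higher, 30.6% of the lower and 27.2% of all promoters. GATAA was in 17.9% of the higher, 24.5% of the lower and 22.7% of all. CCNCNCCC was in 66.2% of the higher, 68.5% of the lower and 56.8% of all. For the other motifs the shares in the higher, lower and all promoters were 39.9%, 32.7% and 37.6% (TTNNGNAA), 17.1%, 15.3% and 14.7% (TGTGGT), 20.5%, 17.4% and 21.5% (TAACNG) and 50.9%, 45.9% and 48.5% (CAGNTG). These shares describe the windows and were not tested, and a match is not a site of binding.

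Genes of primary (azurophil) granules and early neutrophils were higher in GMPs nearly throughout. Of 25 measured, 23 rose and none fell, with a median difference of 1.91 against 0.02 over all genes. All 23 had arrays that did not overlap, where 5.49% of all genes were apart and higher. This list and those that follow were chosen with earlier results of these data known, so their counts can be partly fixed by the choice. Over all genes, 7.87% were called higher and 8.17% lower, and the counts of each list stand beside these shares. Elane, neutrophil elastase, had 12.71, 12.76 and 12.93 on antibiotic water and 12.81 and 12.78 on control water in GMPs, against 9.03 to 10.88 (median 10.18) in CMPs. Its GMP arrays spanned a narrow range, while its CMP arrays were spread (2.72 ± 0.19, adjusted p = 3.86e-08). Ms4a3, a gene closely tied to GMPs and their progeny, averaged 11.62 ± 0.08 in GMPs and 8.48 ± 0.6 in CMPs (3.13 ± 0.22, adjusted p = 3.56e-08). Prtn3 (proteinase 3) differed by 1.82 ± 0.13 and Ctsg (cathepsin G) by 1.31 ± 0.1. Mpo, myeloperoxidase, was already at 12.1 ± 0.17 in CMPs and averaged 12.94 ± 0.07 in GMPs (0.84 ± 0.09, adjusted p = 3.5e-06), near the top of the signal range of these arrays. Prom1, the stem cell marker CD133, also rose (3.1 ± 0.21, adjusted p = 2.03e-08) and averaged 4.42 in cMoPs. The 2 members not called were Lyz2, lysozyme (0.18 ± 0.1, adjusted p = 0.296), and Bpi, which lay below the lower quartiles in either group (2.65 ± 0.14 in GMPs and 2.53 ± 0.21 in CMPs).

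Late granule and mature neutrophil genes divided. Of 25 measured, 6 rose, 7 fell and 12 were not called, with a median of -0.06, where 16.0% of all genes were called. The bactericidal peptidoglycan receptor Pglyrp1 averaged 10.88 ± 0.19 in GMPs and 8.25 ± 0.27 in CMPs (2.6 ± 0.14, adjusted p = 1.29e-09). Hdc, which makes histamine, rose by 2.37 ± 0.11, Wfdc21 by 2.28 ± 0.22 and Anxa1, annexin A1, by 2.12 ± 0.13. The secondary granule genes Ltf, Camp and Ngp, chosen after their values were seen, fell. Ltf, lactoferrin, had 7.15, 7.16 and 7.06 on antibiotic water and 7.57 and 7.57 on control water in GMPs, against 7.65 to 8.47 (median 8.18) in CMPs. Its GMP arrays were all below its CMP arrays (-0.79 ± 0.14, adjusted p = 0.000736). Camp, cathelicidin, differed by -0.61 ± 0.13, adjusted p = 0.00381 and Ngp, another secondary granule protein, by -0.73 ± 0.12, adjusted p = 0.000264. S100a8 rose slightly (0.39 ± 0.08, adjusted p = 0.00266), while its partner S100a9 was not called (-0.05 ± 0.1, adjusted p = 0.803).

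Eosinophil genes were among the strongest rises, and basophil and mast cell genes were uneven. Prg2, the major basic protein of eosinophil granules, had 12.56, 12.4 and 12.42 on antibiotic water and 12.07 and 11.75 on control water in GMPs, against 7.26 to 9.03 (median 8.18) in CMPs. The groups did not overlap, with a spread of 0.67 (SD) among CMPs (4.02 ± 0.34, adjusted p = 3.43e-07). Epx, eosinophil peroxidase, averaged 9.21 ± 0.4 in GMPs and 5.03 ± 0.72 in CMPs (4.14 ± 0.23, adjusted p = 2.23e-09), and Prg3 averaged 8.94 ± 0.44 in GMPs and 4.59 ± 0.75 in CMPs (4.34 ± 0.31, adjusted p = 3.89e-08). Ear6 and Rnase12, ribonucleases of the RNase A family, differed by 3.09 ± 0.29 and 3.78 ± 0.24. Ear6 lay at 2.92 ± 0.25 in CMPs, at the lower quartiles, so its difference is uncertain in size. In cMoPs the means were 7.11 for Prg2, 4.64 for Epx, 5.76 for Prg3 and 4.85 for Rnase12, all below those of GMPs. The interleukin 5 receptor gene Il5ra, which eosinophils need, averaged 3.52 ± 0.35 in GMPs and 2.86 ± 0.19 in CMPs (0.62 ± 0.13, adjusted p = 0.00244), and its CMP mean lay below the lower quartiles.

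The basophil proteases Mcpt8 (1.53 ± 0.18, adjusted p = 1.11e-05) and Prss34 (1.7 ± 0.16, adjusted p = 1.43e-06) rose in GMPs. Cpa3, a mast cell protease, was high in both, at 9.86 ± 0.34 in GMPs and 9.46 ± 0.51 in CMPs, and was not called (0.34 ± 0.14, adjusted p = 0.134); it averaged 4.28 in cMoPs. Slc18a2, the vesicular transporter of histamine and other amines, fell to 6.99 ± 0.21 in GMPs, against 8.86 ± 0.23 in CMPs (-1.87 ± 0.21, adjusted p = 8.45e-06). Over the 23 measured eosinophil, basophil and mast cell genes, 11 rose, 2 fell and 10 were not called, with a median of 0.42.

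Monocyte genes moved by smaller amounts. Of 28 measured, 11 rose, 4 fell and 13 were not called, with a median of 0.35, where 16.0% of all genes were called. F13a1, a clotting factor subunit of monocytes, had 8.84, 9.05 and 9.07 on antibiotic water and 9.16 and 9.05 on control water in GMPs, against 6.13 to 7.84 (median 7.28) in CMPs. The groups did not overlap (1.9 ± 0.12, adjusted p = 1.5e-08), and cMoPs averaged 10.58. Tifab, an adaptor-like regulator of innate signalling, averaged 9.1 ± 0.1 in GMPs and 7.3 ± 0.61 in CMPs (1.81 ± 0.14, adjusted p = 1.01e-07). Tgfbi, an extracellular matrix protein, differed by 0.88 ± 0.13, adjusted p = 0.000111 with overlapping arrays. The chemokine receptor gene Ccr2 rose by 0.5 ± 0.13, adjusted p = 0.0156 with overlapping arrays, while Cx3cr1 (0.24 ± 0.14, adjusted p = 0.308) and Ly86, a partner of the receptor RP105 (0.55 ± 0.2, adjusted p = 0.0825), were not called. Without the first GMP array on control water, Ccr2 differed by 0.4 (adjusted p = 0.106) and was no longer called.

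Macrophage genes were called in 4 of 17 measured members, against 16.0% of all genes. Of these, 2 rose and 2 fell, and the median over all 17 was -0.16. Vcam1, an adhesion molecule, averaged 7.83 ± 0.42 in GMPs and 5.3 ± 0.25 in CMPs (2.47 ± 0.14, adjusted p = 3.02e-09), and in cMoPs it was at 5.08. Adgre1, which encodes F4/80, rose by 1.59 ± 0.2, adjusted p = 2.97e-05. Apoe, apolipoprotein E, fell by 1.19 on the log2 scale (adjusted p = 1.04e-06), and Hmox1, which breaks down heme, differed by -0.73 ± 0.17, adjusted p = 0.00758 with overlapping arrays. The Hmox1 call was lost without the first GMP array on control water, at -0.59 (adjusted p = 0.0626). The complement gene C1qa, a marker of mature macrophages, averaged 5.02 ± 0.17 in GMPs and 5.17 ± 0.34 in CMPs and was not called (-0.14 ± 0.15, adjusted p = 0.614).

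Dendritic cell and MHC class II genes had no member that rose. Of 17 measured, 7 fell and 10 were not called, with a median of -0.42, where 16.0% of all genes were called. H2-Aa and H2-Ab1, which encode the chains of the class II molecule I-A, averaged 3.58 ± 0.42 and 7.28 ± 0.2 in GMPs, against 4.94 ± 0.67 and 7.93 ± 0.25 in CMPs. The difference of H2-Ab1 was -0.69 ± 0.13, adjusted p = 0.000902, and that of H2-Aa was -1.32 ± 0.16, adjusted p = 2.17e-05. H2-Aa arrays overlapped, and its difference was -2.09 on antibiotic water but -0.55 on control water, where it was not called (adjusted p = 0.221). The test of the difference between the waters did not pass (-1.54 ± 0.33, adjusted p = 0.5). The dendritic cell factor Zbtb46 fell to 4.3 ± 0.38 in GMPs, against 5.31 ± 0.31 in CMPs (-0.98 ± 0.19, adjusted p = 0.00128).

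Red cell genes were lower in GMPs with 1 exception. Of 21 measured, 20 fell by at least 2-fold with arrays apart, and the median difference was -3.72. Over all genes, 1.89% were called at least 2-fold lower. The mean log2 signal over the list lay between 4.58 and 4.83 in the GMP arrays and between 7.83 and 8.04 in the CMP arrays. Car1 had 8.82, 8.38 and 8.25 on antibiotic water and 6.81 and 6.59 on control water in GMPs, against 11.88 to 12.11 (median 12.01) in CMPs. The 2 GMP arrays on control water were lower than the 3 on antibiotic water, and all 5 were below every CMP array (-4.41 ± 0.13, adjusted p = 3.46e-12). Hemgn, a nuclear protein of red cell precursors, averaged 4.77 ± 0.42 in GMPs and 8.42 ± 0.15 in CMPs (-3.72 ± 0.16, adjusted p = 1.33e-10), and Kel, the Kell blood group protein, averaged 3.86 ± 0.43 in GMPs and 7.72 ± 0.21 in CMPs (-3.79 ± 0.13, adjusted p = 1.63e-11). The receptor of erythropoietin, Epor, fell to 5.06 ± 0.1 in GMPs, against 7.34 ± 0.39 in CMPs (-2.27 ± 0.16, adjusted p = 5.03e-08). Slc4a1, the band 3 anion exchanger of late red cell precursors, was low in either group and not called (4.23 ± 0.21 in GMPs and 4.44 ± 0.42 in CMPs).

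Heme synthesis and iron genes fell in 11 of 19 measured members, while 4 rose and 4 were not called, with a median of -0.59. Alas1, the housekeeping form of the first enzyme of heme synthesis, had 10.87, 10.83 and 10.79 on antibiotic water and 10.79 and 10.88 on control water in GMPs, against 8.26 to 8.78 (median 8.41) in CMPs. The GMP arrays lay within a narrow range, all above the CMP arrays (2.39 ± 0.1, adjusted p = 1.71e-10). Some later enzymes of the same path went down: Cpox differed by -1.76 ± 0.11, adjusted p = 7.27e-09, Alad by -1.4 ± 0.14, adjusted p = 2.11e-06, Urod by -0.93 ± 0.12, adjusted p = 2.7e-05 and Fech, which inserts the iron, by -0.84 ± 0.14, adjusted p = 0.000356. Urod and Fech were chosen after their values were seen, and not every enzyme of the path is given. Cpox had 7.34, 7.8 and 7.51 on antibiotic water and 7.38 and 7.27 on control water in GMPs, against 9.12 to 9.29 (median 9.19) in CMPs, with no overlap. The iron transporter gene Slc11a2 averaged 6.14 ± 0.21 in GMPs and 7.52 ± 0.25 in CMPs (-1.38 ± 0.13, adjusted p = 8.37e-07).

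Most megakaryocyte and platelet genes fell. Of 24 measured, 18 fell, 6 were not called and none rose, with a median of -1.08 beside the -3.72 of the red cell genes. F2r, the thrombin receptor PAR1, had 7.36, 7.74 and 7.5 on antibiotic water and 7.55 and 7.48 on control water in GMPs, against 10.29 to 10.85 (median 10.58) in CMPs, and the groups were apart (-3.07 ± 0.19, adjusted p = 7.19e-09). Gp5, a subunit of the platelet receptor for von Willebrand factor, averaged 5.01 ± 0.41 in GMPs and 7.89 ± 0.13 in CMPs (-2.85 ± 0.18, adjusted p = 8.14e-09). The platelet chemokine gene Pf4 averaged 7.17 ± 0.5 in GMPs and 8.9 ± 0.22 in CMPs (-1.78 ± 0.23, adjusted p = 4.04e-05), against 3.8 in cMoPs. Plek, pleckstrin, differed by -1.93 ± 0.16, adjusted p = 1.84e-07, Itga2b, the platelet integrin CD41, by -1.58 ± 0.17, adjusted p = 4.56e-06, and Vwf, von Willebrand factor, by -0.97 ± 0.13, adjusted p = 4.99e-05.

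Genes of stem and multipotent progenitors were lower too, and none was called higher. Of 30 measured, 20 fell and 10 were not called, with a median of -0.68. Flt3, a receptor of early lymphoid and myeloid progenitors, had 5.39, 5.5 and 5.23 on antibiotic water and 5.13 and 5.22 on control water in GMPs, against 7.97 to 8.83 (median 8.24) in CMPs. All GMP arrays were far below all CMP arrays (-3.07 ± 0.12, adjusted p = 2.92e-11), and cMoPs stood at 6.25. Meis1, a partner of the HOX proteins in stem cells, averaged 6.12 ± 0.18 in GMPs and 8.22 ± 0.18 in CMPs (-2.1 ± 0.12, adjusted p = 5.24e-09). Ctla2a, a protease inhibitor, differed by -2.35 ± 0.2, adjusted p = 2.97e-07, Tek, the angiopoietin receptor, by -2.0 ± 0.12, adjusted p = 8.9e-09, and Hlf, a stem cell transcription factor, by -1.01 ± 0.18, adjusted p = 0.000653. Hoxa9 was called at -0.47 ± 0.15, adjusted p = 0.043 with overlapping arrays, a call lost when any of 8 single arrays was left out. Cd34 fell by 0.47 on the log2 scale, at 10.21 ± 0.18 in GMPs and 10.71 ± 0.08 in CMPs (adjusted p = 0.00058).

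Beside Dntt, Il7r and Ighm fell among the B lineage genes. Called were 6 of 18 B lineage genes and 1 of 15 T and NK cell genes, against 16.0% of all genes. Of the 18 measured B lineage genes, 2 rose, 4 fell and 12 were not called, with a median of -0.29. Il7r, the interleukin 7 receptor, averaged 3.19 ± 0.27 in GMPs and 4.86 ± 0.3 in CMPs (-1.67 ± 0.18, adjusted p = 3.6e-06). Its GMP mean lay near the lower quartiles, with the lowest GMP array at 2.82, so the size of its fall is uncertain. Ighm, the immunoglobulin mu chain, averaged 8.86 ± 0.26 in GMPs and 10.6 ± 0.44 in CMPs (-1.74 ± 0.2, adjusted p = 8.61e-06), and cMoPs were at 10.66. Cd79b, a chain of the B cell receptor, rose (0.8 ± 0.17, adjusted p = 0.00388), and the B cell factor Pax5 was at 4.57 ± 0.15 in GMPs and 4.56 ± 0.33 in CMPs and not called (0.02 ± 0.15, adjusted p = 0.953). Of 15 T and NK cell genes, 1 was called, Klrd1, an NK receptor (-0.61 ± 0.19, adjusted p = 0.0394), whose arrays overlapped and whose call was lost when any of 8 single arrays was left out. The median of the Klrd1 GMP arrays, 2.73, lay below the lower quartiles. The T cell receptor component Cd3e was near the lower quartiles in either group (3.12 ± 0.26 in GMPs and 3.17 ± 0.3 in CMPs). The mean over the T and NK list lay between 3.53 and 3.68 in GMP arrays and between 3.48 and 3.7 in CMP arrays.

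Of 18 stromal and endothelial genes, 1 was called, against 16.0% of all genes. It was the growth factor receptor gene Pdgfrb (-1.14 ± 0.14, adjusted p = 2.61e-05). The list had a median of 0.05, and the collagen gene Col1a1 was at 4.46 ± 0.24 in GMPs and 4.36 ± 0.25 in CMPs. The members with the next largest differences, Fabp4, a fatty acid carrier (-0.65 ± 0.29, adjusted p = 0.157), Cdh5 (0.36 ± 0.16, adjusted p = 0.166) and Col3a1 (0.28 ± 0.12, adjusted p = 0.153), were not called.

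**Figure D3:**
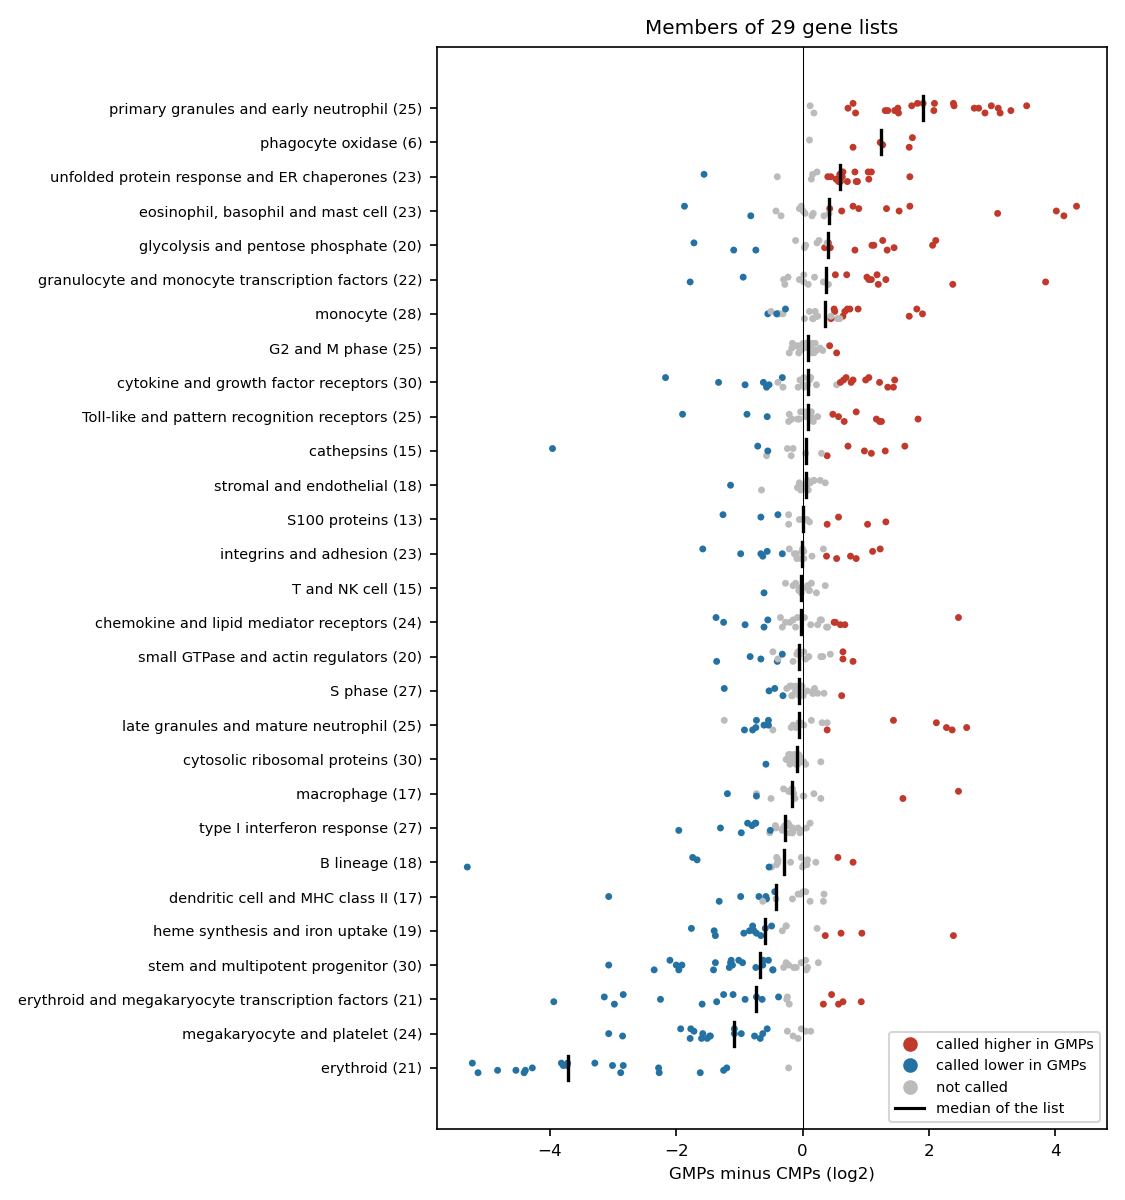
Difference between GMPs and CMPs (horizontal axis, log2) of the measured members of 29 gene lists, 1 row per list with the number measured in brackets and 1 point per gene, red where called higher in GMPs, blue where called lower, grey where not called; the black line is the list's median. Medians run between 1.91 for primary granules and -3.72 for red cell genes, while the cell cycle and ribosomal lists lie close to 0.

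Among transcription factors of granulocytes and monocytes, 10 of 22 measured rose, 2 fell and 10 were not called, with a median of 0.37. Gfi1, a repressor that favours granulocytes, had 8.4, 8.72 and 8.46 on antibiotic water and 8.21 and 8.4 on control water in GMPs, against 5.35 to 6.38 (median 6.12) in CMPs. The groups were apart (2.38 ± 0.16, adjusted p = 2.85e-08), and cMoPs were at 6.89. Cebpa, which is needed to form GMPs, averaged 8.71 ± 0.11 in GMPs and 7.5 ± 0.43 in CMPs (1.2 ± 0.17, adjusted p = 0.000101). Spi1, the gene of PU.1, had 8.65, 8.79 and 8.89 on antibiotic water and 8.95 and 8.77 on control water in GMPs, against 7.66 to 8.0 (median 7.81) in CMPs, a difference of 1.02 ± 0.1, adjusted p = 1.66e-06. All GMP arrays lay above all CMP arrays for both genes. Cebpb differed by 1.32 ± 0.13, adjusted p = 1.28e-06 and Cebpd by 1.18 ± 0.16, adjusted p = 6.75e-05. The lowest GMP and the highest CMP array of Cebpd met at 5.56. Its difference on control water, 0.8, was not called (adjusted p = 0.0596). Xbp1, a factor of the secretory apparatus, rose by 1.05 ± 0.13, adjusted p = 1.63e-05 and Per3, a clock gene, by 1.09 ± 0.13, adjusted p = 1.51e-05.

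Factors tied to monocytes did not behave as a group. Irf8, required for monocytes and dendritic cells, had 8.68, 8.33 and 9.64 on antibiotic water and 9.4 and 9.09 on control water in GMPs, against 8.8 to 9.34 (median 9.14) in CMPs. The groups overlapped and the gene was not called (-0.05 ± 0.18, adjusted p = 0.905), while cMoPs were at 11.08. Klf4 rose to 5.67 ± 0.32 in GMPs, against 5.01 ± 0.24 in CMPs (0.7 ± 0.15, adjusted p = 0.00456), still below the 8.4 of cMoPs. Egr1, an immediate early gene also linked to monocytes, fell to 4.02 ± 0.42 in GMPs, against 5.81 ± 0.55 in CMPs (-1.78 ± 0.19, adjusted p = 5.49e-06), and Jun was called lower at -0.94 ± 0.3, adjusted p = 0.045 with overlapping arrays. The call of Jun was lost when any of 9 single arrays was left out. Nfil3 rose slightly (0.52 ± 0.13, adjusted p = 0.00949), a call lost without the second GMP array on control water, at 0.41 (adjusted p = 0.0744). The Nfil3 arrays overlapped between groups. Batf (0.41), Id2 (0.33), Egr2 (0.19), Nr4a2 (0.02), Klf6 (0.02), Vdr (-0.23), Rara (-0.28), Etv3 (-0.3) and Myb (0.09) were not called. Myb, a factor of all early progenitors, was at 11.68 ± 0.07 in GMPs and 11.58 ± 0.1 in CMPs.

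Factors of the red cell and megakaryocyte lineages fell, and a minority of the list rose. Of 21 measured, 13 fell, 5 rose and 3 were not called, with a median of -0.73. Gfi1b, a repressor related to Gfi1, had 7.02, 7.11 and 7.06 on antibiotic water and 6.88 and 6.23 on control water in GMPs, against 10.42 to 10.89 (median 10.8) in CMPs. Gfi1 and Gfi1b thus differed in opposite directions, with no overlap for either (-3.94 ± 0.13, adjusted p = 1e-11 for Gfi1b). Gata1 had 5.12, 5.21 and 5.34 on antibiotic water and 5.57 and 4.83 on control water in GMPs, against 7.93 to 8.36 (median 8.2) in CMPs (-2.98 ± 0.12, adjusted p = 9.62e-11). Gata2, which acts earlier and in mast cells, averaged 7.24 ± 0.19 in GMPs and 9.49 ± 0.15 in CMPs (-2.25 ± 0.16, adjusted p = 3.16e-08). Zfpm1, the GATA partner FOG1, differed by -3.14 ± 0.2, adjusted p = 1.07e-08 and Klf1 by -2.84 ± 0.16, adjusted p = 3e-09.

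The partners of GATA1 fell by different amounts. Tal1 differed by -1.59 ± 0.16, Ldb1 by -1.1 ± 0.1, Lmo2 by -0.64 ± 0.11 and the corepressor Cbfa2t3 by -0.73 ± 0.13. Mef2c, a factor of megakaryocytes and lymphoid cells, fell to 7.69 ± 0.32 in GMPs, against 8.99 ± 0.16 in CMPs (-1.25 ± 0.13, adjusted p = 2.53e-06). Bcl11a, a repressor of fetal globin, differed by -1.36 ± 0.11, adjusted p = 2.9e-07, Ikzf2 by -0.91 ± 0.14, adjusted p = 0.000177 and Erg by -0.38 ± 0.08, adjusted p = 0.00458. The 5 that rose were Cited2 (0.93 ± 0.11, adjusted p = 8.29e-06), Lyl1 (0.64 ± 0.12, adjusted p = 0.00118), Mybl2, a cell cycle factor (0.57 ± 0.09, adjusted p = 0.000378), Fli1 (0.33 ± 0.08, adjusted p = 0.00752) and Zbtb16 (0.46 ± 0.15, adjusted p = 0.0396). The Zbtb16 arrays overlapped, and its call was lost when any of 9 single arrays was left out. On antibiotic water Zbtb16 had 6.75, 7.0 and 7.33 in GMPs and 5.99, 6.24 and 6.21 in CMPs. On control water it had 5.7 and 6.18 in GMPs and 5.83, 5.97 and 5.88 in CMPs, so the groups overlapped there. Runx1 (-0.25), Nfe2 (-0.24) and Myc (-0.21) were not called.

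**Figure D4:**
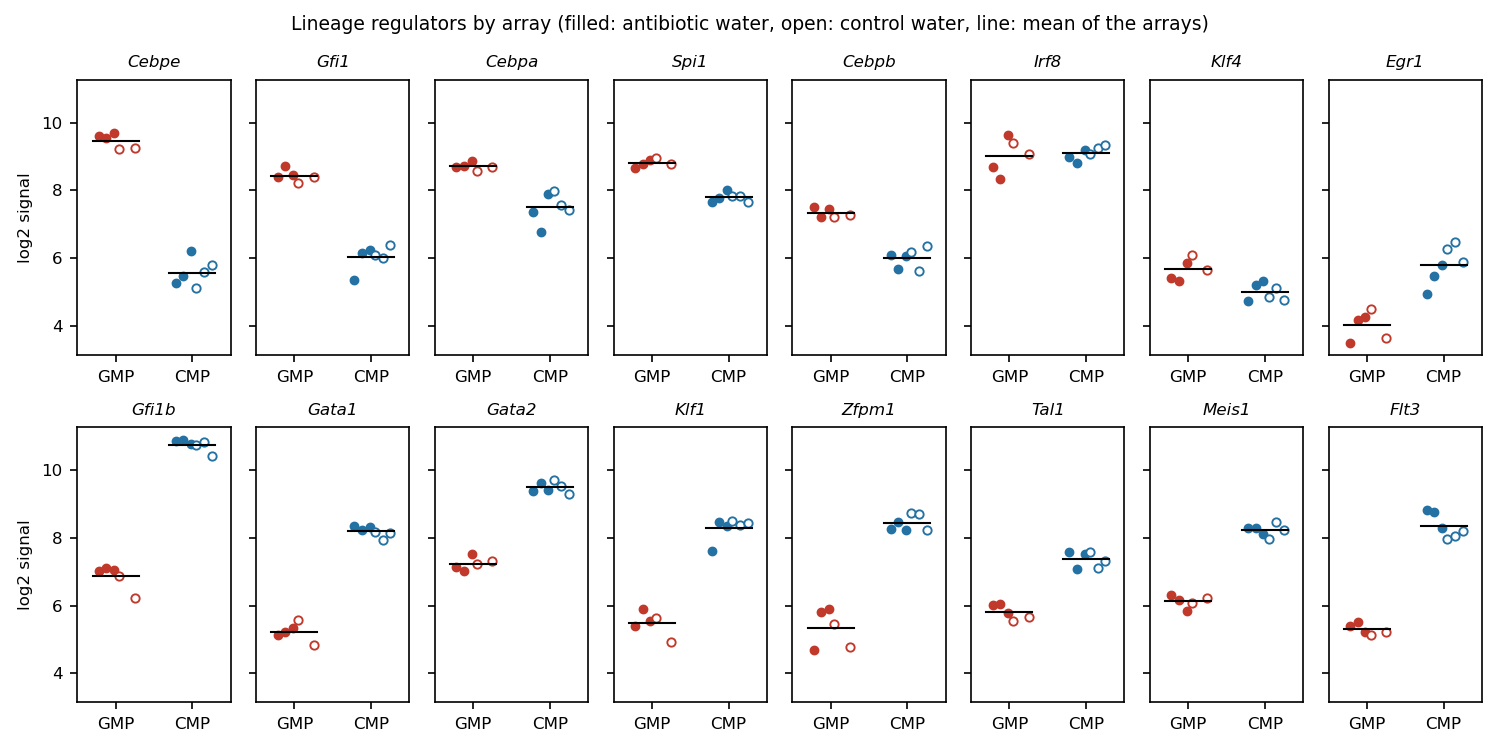
Log2 signal (vertical axis) of 16 lineage regulators, 1 panel per gene and 1 point per array, with GMPs in red left of CMPs in blue, filled for antibiotic water and open for control water, and the mean of the arrays as a line. Cebpe and Gfi1 stand far higher in GMPs, Gfi1b, Gata1, Klf1 and Zfpm1 far lower, and Irf8 overlaps.

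Receptors of growth factors differed by factor. Of 30 measured cytokine and growth factor receptors, 11 rose, 7 fell and 12 were not called, with a median of 0.09. Of all genes, 16.0% were called. Csf3r, the receptor of the granulocyte factor G-CSF, had 8.43, 8.52 and 8.73 on antibiotic water and 8.38 and 8.87 on control water in GMPs, against 6.91 to 7.45 (median 7.27) in CMPs. The groups did not overlap (1.35 ± 0.11, adjusted p = 2.16e-07). Both chains of the GM-CSF receptor rose, Csf2ra by 1.22 ± 0.09 and the shared chain Csf2rb by 1.05 ± 0.13, as did the interleukin 3 receptor chain Il3ra (0.6 ± 0.13, adjusted p = 0.00371) and the interleukin 6 receptor Il6ra (0.8 ± 0.13, adjusted p = 0.000359). The arrays of Il3ra and of Il6ra overlapped between groups. Met, the receptor of hepatocyte growth factor, averaged 6.86 ± 0.43 in GMPs and 5.46 ± 0.61 in CMPs (1.46 ± 0.18, adjusted p = 1.87e-05), and cMoPs were at 9.24. Tnfrsf1b, a receptor of tumour necrosis factor, rose by 1.44 ± 0.14, adjusted p = 1.05e-06.

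Falls among these receptors were led by Il1r1, the signalling receptor of interleukin 1. Il1r1 had 5.19, 5.24 and 5.8 on antibiotic water and 5.22 and 5.42 on control water in GMPs, against 7.08 to 8.13 (median 7.5) in CMPs. All GMP arrays were below all CMP arrays (-2.17 ± 0.13, adjusted p = 8.14e-09), and cMoPs were at 5.59. Il10ra, the interleukin 10 receptor, fell to 4.69 ± 0.5 in GMPs, against 6.1 ± 0.11 in CMPs (-1.33 ± 0.17, adjusted p = 3.34e-05), and cMoPs were at 6.89.

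Of 24 chemokine and lipid mediator receptors, 5 rose, 5 fell and 14 were not called, with a median of -0.03. Of all genes, 16.0% were called. Ltb4r1, which guides neutrophils to leukotriene B4, averaged 8.72 ± 0.23 in GMPs and 6.22 ± 0.46 in CMPs (2.47 ± 0.19, adjusted p = 9.15e-08). Cxcr4, the retention receptor of the marrow, rose by 0.52 ± 0.08, adjusted p = 0.000324. S1pr1, an exit receptor for sphingosine-1-phosphate, fell by 1.37 on the log2 scale (adjusted p = 1.98e-06), Cysltr2 by 1.25 (adjusted p = 6.04e-07) and P2ry14 by 0.91 (adjusted p = 0.00951). The GMP mean of Cysltr2, 2.88, lay below the lower quartiles, so the size of its fall is uncertain. The P2ry14 arrays overlapped. The P2ry14 call was lost without the first GMP array on control water, at -0.72 (adjusted p = 0.0753).

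Of 25 Toll-like and pattern recognition receptors, 8 rose, 3 fell and 14 were not called, with a median of 0.08. Of all genes, 16.0% were called. Tlr4, the receptor of endotoxin, had 6.39, 6.63 and 6.23 on antibiotic water and 6.56 and 6.38 on control water in GMPs, against 4.34 to 4.96 (median 4.58) in CMPs, without overlap (1.83 ± 0.14, adjusted p = 1.38e-07). Receptors of bacterial lipoproteins rose too, Tlr1 by 1.25 ± 0.2, Tlr6 by 1.22 ± 0.21 and their partner Tlr2 by 0.57 ± 0.11. Cd36, a scavenger receptor shared with platelets and red cell precursors, fell to 2.43 ± 0.18 in GMPs, against 4.35 ± 0.66 in CMPs (-1.9 ± 0.23, adjusted p = 1.65e-05), and its GMP mean lay below the lower quartiles. Of 23 integrins and adhesion genes, 6 rose, 6 fell and 11 were not called, with a median of -0.01, and Alcam rose most (1.23 ± 0.11, adjusted p = 3.94e-07).

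The oxidase that phagocytes use to make superoxide rose nearly whole. Of 6 measured genes, 5 rose, with a median of 1.25. Ncf1 had 8.87, 9.02 and 9.08 on antibiotic water and 8.53 and 8.85 on control water in GMPs, against 6.84 to 7.25 (median 7.12) in CMPs (1.74 ± 0.1, adjusted p = 3.56e-09). The membrane subunits Cybb (1.69 ± 0.11, adjusted p = 2.43e-08) and Cyba (1.23 ± 0.18, adjusted p = 0.000151), the cytosolic subunit Ncf4 (1.27 ± 0.14, adjusted p = 5.94e-06) and the GTPase Rac2 (0.8 ± 0.11, adjusted p = 5.25e-05) went the same way. Rac1, its widely expressed relative, was not called (0.11 ± 0.08, adjusted p = 0.428).

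Of 15 cathepsins, 6 rose, 3 fell and 6 were not called, with a median of 0.05, where 16.0% of all genes were called. Ctsh (1.62 ± 0.18, adjusted p = 5.08e-06) and Ctsz (1.09 ± 0.11, adjusted p = 1.56e-06) rose, and Ctse fell most, at 6.91 ± 0.24 in GMPs against 10.83 ± 0.22 in CMPs. Of 13 S100 genes, 4 rose, 3 fell and 6 were not called, with a median of 0.0, beside the same 16.0% of all genes. S100a11 (1.32 ± 0.1, adjusted p = 8.35e-08) and S100a1 (1.03 ± 0.09, adjusted p = 6.27e-07) rose, while S100a10 (-1.26 ± 0.12, adjusted p = 8.22e-07) and S100a6 (-0.66 ± 0.12, adjusted p = 0.00117) fell, the last with overlapping arrays.

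Among sugar-breakdown genes, some isoforms that catalyse the same step differed in opposite directions. Of 20 measured, 11 rose, 3 fell and 6 were not called, with a median of 0.4. Pkm here and Hk1, Hk2 and Pfkp below were chosen after their values were seen, and not every isoform of these steps is given. For pyruvate kinase, the last step, the general isoform Pkm had 10.82, 10.8 and 10.82 on antibiotic water and 10.8 and 10.73 on control water in GMPs, against 9.5 to 9.82 (median 9.66) in CMPs (1.13 ± 0.07, adjusted p = 1.5e-08). The red cell and liver isoform Pklr, which was not in the list, had 4.17, 4.89 and 4.36 on antibiotic water and 4.81 and 3.79 on control water in GMPs, against 8.4 to 8.81 (median 8.57) in CMPs (-4.22 ± 0.19, adjusted p = 2.31e-10). Neither gene's arrays overlapped between groups.

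For hexokinase, the first step, Hk3 (2.11 ± 0.11, adjusted p = 8.15e-10) and Hk2 (1.1 ± 0.1, adjusted p = 5.06e-07) rose, and Hk1, the main isoform of red cells, fell (-0.74 ± 0.11, adjusted p = 9.02e-05). For phosphofructokinase, Pfkp rose (1.34 ± 0.1, adjusted p = 5.91e-08) and Pfkm, the muscle and red cell isoform, fell (-1.72 ± 0.17, adjusted p = 2.27e-06). Fbp1, which runs that step backwards, averaged 7.1 ± 0.72 in GMPs and 4.91 ± 0.86 in CMPs (2.06 ± 0.24, adjusted p = 1.12e-05). Ldhb, a lactate dehydrogenase subunit, rose by 1.45 ± 0.14, adjusted p = 1.37e-06.

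Genes of protein folding in the endoplasmic reticulum rose in most members. Of 23 measured, 18 rose, 1 fell and 4 were not called, with a median of 0.6. Sdf2l1, a chaperone partner, averaged 9.74 ± 0.27 in GMPs and 8.09 ± 0.26 in CMPs (1.7 ± 0.11, adjusted p = 1.08e-08). Edem1, which marks misfolded proteins for breakdown, differed by 1.09 ± 0.09, adjusted p = 1.67e-07, and the main chaperone BiP, Hspa5, had 9.96, 10.23 and 10.1 on antibiotic water and 10.23 and 10.33 on control water in GMPs, against 9.08 to 9.83 (median 9.45) in CMPs (0.71 ± 0.1, adjusted p = 0.0001). The 1 member that fell was Asns, asparagine synthetase, a target of the amino acid response (-1.56 ± 0.11, adjusted p = 3.89e-08).

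Cell cycle and ribosomal lists had medians near 0. S phase genes were called at 5 of 27, G2 and M phase genes at 2 of 25 and ribosomal genes at 1 of 30, against 16.0% of all genes. Of the 27 S phase genes, 1 rose (Cdc45, 0.62 ± 0.11, adjusted p = 0.000957), 4 fell and 22 were not called, with a median of -0.05. Ccne1, cyclin E1, fell most, at 6.7 ± 0.17 in GMPs and 7.95 ± 0.06 in CMPs (-1.24 ± 0.11, adjusted p = 8.7e-07), and Chaf1b (-0.53 ± 0.1, adjusted p = 0.00105) and Cdc6 (-0.44 ± 0.12, adjusted p = 0.0212) fell less. The Cdc6 call was lost without the first CMP array on antibiotic water, at -0.4 (adjusted p = 0.0547), or the second GMP array on control water, at -0.36 (adjusted p = 0.118). Mcm2, of the replicative helicase, was not called (0.01 ± 0.09, adjusted p = 0.98). Of 25 G2 and M phase genes, 2 rose, the mitotic genes Kif23 (0.54 ± 0.1, adjusted p = 0.000851) and Aurkb (0.43 ± 0.09, adjusted p = 0.00415), and none fell, with a median of 0.09. The Aurkb difference was 0.64 on antibiotic water (adjusted p = 0.00245) but 0.22 on control water, where it was not called (adjusted p = 0.449). For Aurkb the test of the difference between the waters did not pass (adjusted p = 0.883). Mki67, the gene of the Ki-67 antigen, was at 9.8 ± 0.16 in GMPs and 9.94 ± 0.11 in CMPs and not called (-0.16 ± 0.1, adjusted p = 0.318). Of 30 ribosomal protein genes, 1 was called, Rpl3 (-0.58 ± 0.12, adjusted p = 0.00309), whose mean over its probe sets differed by -0.2 (adjusted p = 0.23) and was not called.

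Type I interferon genes had 8 members that fell and none that rose among 27 measured, with a median of -0.28. Over all genes, 7.87% were called higher and 8.17% lower. Rtp4 averaged 5.37 ± 0.64 in GMPs and 7.43 ± 0.52 in CMPs (-1.96 ± 0.26, adjusted p = 3.61e-05), and Irf7, which amplifies the response, had 4.46, 4.52 and 5.06 on antibiotic water and 5.13 and 4.99 on control water in GMPs, against 5.72 to 6.66 (median 6.24) in CMPs. The Irf7 arrays did not overlap (-1.3 ± 0.2, adjusted p = 0.000204). Irf9 (-0.87 ± 0.17, adjusted p = 0.00159) and Usp18, a brake of the interferon receptor (-0.97 ± 0.18, adjusted p = 0.00117), fell as well. The mean of the list lay between 5.47 and 6.03 in GMP arrays and between 5.9 and 6.45 in CMP arrays, so that the ranges overlapped.

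Of 20 small GTPase and actin regulators, 3 rose, 5 fell and 12 were not called, with a median of -0.05. Of all genes, 16.0% were called. Scin, an actin-severing protein, averaged 4.81 ± 0.36 in GMPs and 6.12 ± 0.97 in CMPs (-1.36 ± 0.14, adjusted p = 2.32e-06), and its CMP arrays lay between 6.66 and 7.2 on antibiotic water and between 5.1 and 5.54 on control water. The groups overlapped over both waters, since 1 GMP array on antibiotic water lay at 5.31, but not within either water. Coro2a (-0.66 ± 0.12, adjusted p = 0.000909) and the tropomyosin gene Tpm4 (-0.83 ± 0.16, adjusted p = 0.00137) also fell, the latter with overlapping arrays.

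The difference between GMPs and CMPs was also taken within each water. On antibiotic water, with 3 GMP and 3 CMP arrays, 2426 genes (10.9%) were called at an adjusted p under 0.05. On control water, with 2 GMP and 3 CMP arrays, 1786 genes (8.05%) were called, and these counts differ in the number of arrays behind them. Many genes called over both waters were not called on control water alone. Without the first GMP array on control water, 1140 were called on control water. Whether the difference itself depended on the water was tested as antibiotic minus control, at the false discovery rate under 0.2 that the study states. It did for 5 genes (0.0225%), while 1243 genes (5.60%) had an unadjusted p under 0.05. With unmoderated variances, 1 gene was called, and with the replicate number as a block 0 genes were.

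Pilrb1, an activating receptor of myeloid cells, had the largest such dependence. Pilrb1 had 6.47, 7.25 and 6.77 on antibiotic water and 5.12 and 4.93 on control water in GMPs. In CMPs it had 4.1, 3.07 and 3.49 on antibiotic water and 4.58, 4.91 and 4.83 on control water. GMPs were above CMPs on antibiotic water (3.28), whereas on control water the groups lay close together (0.25), a difference of 3.02 ± 0.51 (adjusted p = 0.129). Ly96, the MD-2 partner of the endotoxin receptor, had 4.06, 4.07 and 4.48 on antibiotic water and 5.42 and 5.07 on control water in GMPs. In CMPs it had 5.06, 5.33 and 4.85 on antibiotic water and 4.62, 4.51 and 4.43 on control water. It was lower in GMPs than in CMPs on antibiotic water (-0.88) and higher on control water (0.72), so that the mean over both was not called (-0.08 ± 0.14, adjusted p = 0.788), and the waters differed by -1.6 ± 0.27 (adjusted p = 0.129).

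Clec4a2 was higher in GMPs on both waters, by 4.13 on antibiotic and 2.43 on control water (1.7 ± 0.24, adjusted p = 0.0669). Car1 was lower in GMPs on both, with differences of -3.56 on antibiotic and -5.25 on control water (1.69 ± 0.26, adjusted p = 0.0718). BC051142 differed by 0.45 on antibiotic and -1.1 on control water (1.55 ± 0.23, adjusted p = 0.0669), and its control GMP arrays lay at 2.74 and 2.49, below the lower quartiles. At a rate of 0.05, 0 genes passed in this limma test, with the same 1243 at an unadjusted p under 0.05. Leaving out single arrays moved the count of 5 between 2, without the second CMP array on control water, and 10, without the first GMP array on control water.

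**Figure D5:**
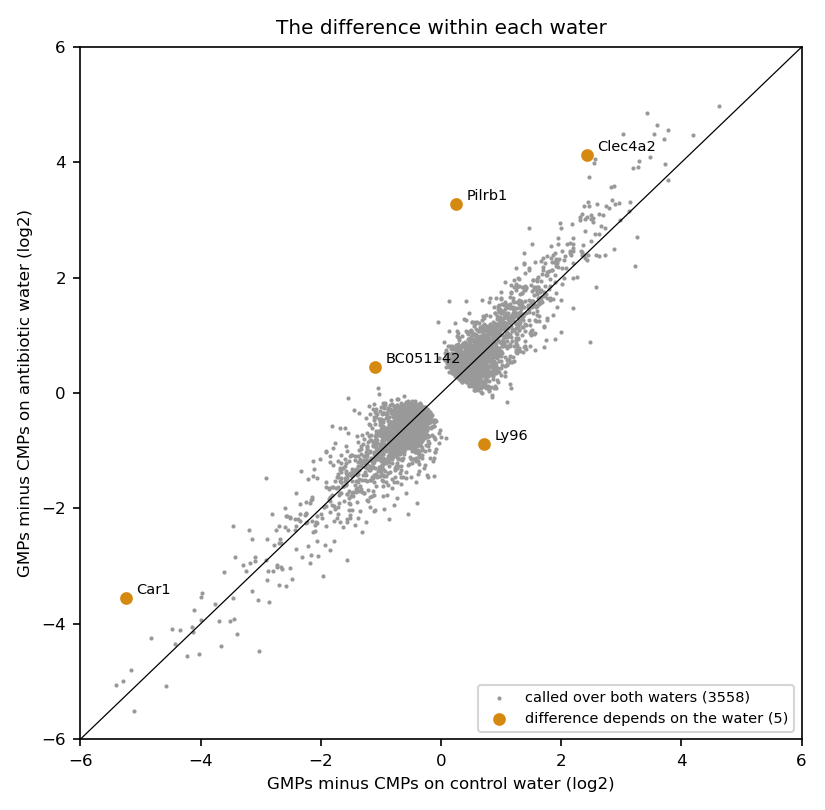
Difference between GMPs and CMPs on antibiotic water (vertical axis, log2) against that on control water (horizontal axis, log2) for the 3558 genes called over both waters (grey) and the 5 genes whose difference depends on the water (orange), with the line of equal differences. Of the grey points 3550 have the same sign on both axes.

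Against cMoPs, the third progenitor, 1202 genes (5.42%) were called in cMoPs minus GMPs, a contrast that shares the GMP arrays with the one above. The cMoP values place the leading genes: Elane was at 12.53 in cMoPs, while Cebpe (7.17; cMoPs minus GMPs -2.29 ± 0.18, adjusted p = 9.52e-07) and Prg2 (7.11; -5.01 ± 0.36, adjusted p = 3.85e-07) were lower there than in GMPs. Ermap (4.47) and Rhag (3.82) were low in cMoPs as in GMPs. Gata2 (5.31; -1.95 ± 0.16, adjusted p = 1.58e-06) and Pf4 (3.8; -3.34 ± 0.25, adjusted p = 4.59e-07) were lower in cMoPs than in GMPs.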

How the data were processed

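Bone marrow progenitors of C57BL/6 mice were measured on 16 whole-transcript microarrays. The authors deposited 1 table of normalized log2 signals for 41345 probe sets, for which the submitters' processing notes name Partek and the Transcriptome Analysis Console. The sources used here do not give the background correction or the normalization, and the values were used as deposited. Probe sets were named from the platform annotation, with 23521 that had 1 symbol, 1814 with several and 16010 with none. Of the first, 23328 matched a RefSeq gene by its identifier. For genes with several probe sets (1082) the brightest over all arrays was kept, leaving 22180 genes.

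A limma 3.58.1 model (R 4.3.3) with 1 mean per progenitor and water was fitted to all 16 arrays, which left 10 residual degrees of freedom. The script was tested on simulated data. Contrasts averaged the waters, p-values were two-sided and adjusted over all genes, and 0.05 was the threshold, or 0.2 for the difference between waters. Genes were grouped into 30 lists (626 genes measured; a gene can be in several).

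Named were the 15 genes with the largest rise and the 15 with the largest fall among those called with arrays apart, up to 4 members per list, all listed regulators, named growth factor receptors, genes that depended on the water and all gate genes. Predicted genes, small RNAs and gate genes stayed out of the first of these. Further genes were chosen after their values were seen: Bpi, C1qa, Camp, Ccr2, Cd34, Cd3e, Col1a1, Cpa3, Cx3cr1, Cxcr4, Elane, Fech, Hemgn, Hk1, Hk2, Hlf, Hoxa9, Hspa5, Il10ra, Kel, Ltf, Ly86, Lyz2, Mcm2, Mcpt8, Mki67, Mpo, Mt1, Mt3, Ngp, Pax5, Pfkp, Pkm, Prss34, Prtn3, Rac1, S100a8, S100a9, Slc18a2, Slc4a1, Tlr2, Urod and Vwf. The members and lists were chosen with earlier results of these data known. Alternatives changed the probe set rule, the filter on dim genes, the normalization, the arrays fitted, the variance model, a replicate block, an additive model, the threshold, and left out each array in turn.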

Additional observations from a re-analysis of the deposited data

Results flagged for a closer look

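The difference between GMPs and CMPs depended on the water for 5 genes, given as antibiotic minus control. It was 3.02 for Pilrb1 (3.28 on antibiotic and 0.25 on control water), 1.7 for Clec4a2 (4.13 and 2.43), 1.69 for Car1 (-3.56 and -5.25), 1.55 for BC051142 (0.45 and -1.1) and -1.6 for Ly96 (-0.88 and 0.72), each from a test of the difference itself at an adjusted p under 0.2. With unmoderated variances 1 gene was called, and with the replicate number as a block 0 genes were. The other settings that change this count are given with the effects of processing below.

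In 484 sets of values, 1 for each gene examined singly and each progenitor, 30 had a lowest or highest array set apart from the others beyond Dixon's critical value, and chance gives about 1 in 20. Among GMP arrays, the first on antibiotic water was low for Mpo (12.82) and Myc (9.97) and high for the ribosomal gene Rpl5 (6.44). The second on antibiotic water was low for Tpm4 (5.29), and the third was high for Csf2ra (7.85), Fli1 (10.35) and Kit (10.15). The first on control water was high for Cdh5 (4.11) and low for Per3 (6.44). The second on control water was low for Cebpd (5.56), Gfi1b (6.23), Pkm (10.73), Rnase12 (7.69) and the ribosomal gene Rpl37 (5.38).

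Among CMP arrays, the first on antibiotic water was low for Ctsz (7.6), Gfi1 (5.35) and Klf1 (7.62) and high for Il7r (5.42). The second on antibiotic water was low for Rtp4 (6.42), and the third was high for Aldh1a1 (8.96) and Rpl37 (6.45). The first on control water was high for C1qa (5.82), Ccne1 (8.06) and Hk1 (8.34) and low for Fbp1 (3.29), Nr4a2 (4.77) and Tlr6 (5.12). The second on control water was high for Coro2a (8.19), and the third was high for Cybb (7.33) and low for Gfi1b (10.42).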

How the results depend on the processing

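Under all alternatives other than the threshold and the leaving out of arrays, GMPs minus CMPs called between 3116 and 3867 genes, against 3558. At a rate of 0.2 it called 6051 (3060 higher, 2991 lower), with 4236 (2112 higher, 2124 lower) on antibiotic water and 3760 (1950 higher, 1810 lower) on control water. Leaving out single arrays gave 2816 to 3415 called genes, 1439 to 1655 higher and 1377 to 1760 lower. On antibiotic water it gave 1919 to 2428 called. On control water it gave 1140 to 1790 called, 630 to 947 higher and 510 to 843 lower, the lowest without the first GMP array on control water. For the difference between waters it gave 2 to 10 called, 2 to 5 higher in antibiotic minus control and 0 to 7 lower. That test called 1 gene (1 higher, 0 lower) with unmoderated variances and 0 at a rate of 0.05.

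Same-numbered GMP and CMP arrays correlated in their deviations at 0.023, 0.028 and 0.042 on antibiotic water and 0.016 and 0.003 on control water. Arrays with other numbers correlated at -0.029 to 0.001 on antibiotic water and at -0.016 to 0.015 on control water. With so few arrays per group, these values cannot tell whether the numbers pair the samples. With the replicate number as a block, 3116 genes were called (1534 higher, 1582 lower), with 2273 on antibiotic water and 1379 on control water, and 0 genes (0 higher, 0 lower) for the difference between waters, where limma without the block had 1243 at an unadjusted p under 0.05. The block removes the CMP array whose number has no GMP partner from the comparison within control water.

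Of 192 called genes among the 242 examined singly, 179 were called under each of 20 alternatives where they were tested, and 0 of 4811 values changed sign in a call. Calls of Hoxa9, Jun, Klrd1 and Zbtb16 were lost most often; the cause was not tested. Differences of genes near the lower quartiles of the arrays are limited by the missing detection calls, and 2 GMP arrays on control water limit every value within that water.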

Other observations

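Few microRNA genes were called. Of 484 measured, 5 were higher in GMPs and 11 lower, against 7.87% higher and 8.17% lower over all genes. Their median difference was 0.05, and 4 fell at least 2-fold. These 4 were chosen after their values were seen. Mir181b-2, of a family known in lymphocyte development, averaged 3.71 ± 0.73 in GMPs and 5.56 ± 0.92 in CMPs (-1.86 ± 0.33, adjusted p = 0.000639). The Mir181b-2 arrays overlapped between groups, and its lowest GMP array, at 2.87, lay below the lower quartiles of the arrays. The arrays of Mir1931 and Mir1981 overlapped too. Mir5124a differed by -2.29 ± 0.36, adjusted p = 0.000272, Mir1931 by -1.03 ± 0.32, adjusted p = 0.0404 and Mir1981 by -1.01 ± 0.31, adjusted p = 0.038, and the last pair lost their calls when any of 7 single arrays was left out. The mature sequences, from RefSeq in build GRCm38.p6, are shown for the 2 that kept their calls, with the seed (bases 2 to 8) in capitals; their seeds differ.
mmu-miR-181b-5p, chr2:38853845-38853868, plus strand: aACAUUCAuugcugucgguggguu
mmu-miR-181b-2-3p, chr2:38853883-38853904, plus strand: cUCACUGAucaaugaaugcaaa
mmu-miR-5124a, chr13:40865801-40865820, plus strand: gGUCCAGUgacuaagagcau
Whether the probe sets respond to these mature forms or to their precursors was not tested.

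Most small nucleolar and Cajal body RNA genes lie within introns of other genes. Of 79 measured, 1 was higher and 8 were lower, against 7.87% higher and 8.17% lower over all genes, with a median of -0.31. Snora69 (-1.37 ± 0.36, adjusted p = 0.0138) and Snord49a (-1.04 ± 0.24, adjusted p = 0.00608) were among those that fell and were chosen after their values were seen, and the Snora69 call was lost without the first GMP array on control water, at -0.86 (adjusted p = 0.114). For Snora69 and for Snord49a the arrays overlapped between groups.

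Of 1105 olfactory receptor genes, 20 were higher and 6 lower, against 7.87% and 8.17% of all genes. Their median was 0.05, and 3 fell at least 2-fold. These 3 were Olfr417 (5.07 ± 0.32 in GMPs and 7.64 ± 0.75 in CMPs; -2.57 ± 0.26, adjusted p = 2.67e-06), Olfr248 (3.32 ± 0.28 in GMPs and 5.89 ± 1.08 in CMPs; -2.56 ± 0.36, adjusted p = 7.31e-05) and Olfr414 (2.84 ± 0.17 in GMPs and 4.99 ± 0.68 in CMPs; -2.16 ± 0.28, adjusted p = 3.12e-05). The GMP mean of Olfr414 lay below the lower quartiles of the arrays. All 3 were chosen after their values were seen. In the RefSeq annotation they are consecutive protein-coding genes on chromosome 1, in the order Olfr417, Olfr248 and Olfr414. In cMoPs they averaged 4.43, 2.92 and 3.12.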
